A study of Mus musculus with 24 samples.

Results

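Of the 51912 genes in the RNA-seq count tables, 8 encode the transcription factors whose DNA motifs were carried by the PU.1, RUNX1 and c-REL constructs of the Hi-TransMet pools, together with their close relatives and partners. They are Spi1, which encodes PU.1, the RUNX genes Runx1, Runx2 and Runx3, their shared partner Cbfb, and the NF-kB genes Rel (c-REL), Rela and Nfkb1. The genes were chosen by name, as the factors of these constructs and their relatives. All 8 were present in the tables of the 3 groups of cells, with 3 libraries per group.

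In the Ensembl annotation of GRCm38, Spi1 spans chr2:91082390-91115756 on the plus strand. The RUNX genes lie at chr16:92601466-92826149 (Runx1, minus strand), chr17:44495987-44814797 (Runx2, minus) and chr4:135120652-135177990 (Runx3, plus), and Cbfb at chr8:105170674-105217989 (plus). The NF-kB genes lie at chr11:23736847-23770970 (Rel, minus), chr19:5637483-5648130 (Rela, plus) and chr3:135584655-135691547 (Nfkb1, minus). Counts cover all exons of a gene, and other genes overlap the exons of Runx1 and Runx2 alone, in 0.896% and 5.87% of their exon bases.

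The first group was wild-type mouse embryonic stem cells (ESCs) of the strain C57BL/6 X 129S5. The second was neuronal progenitors (NPs), obtained from ESCs of that strain and genotype by differentiation with retinoic acid. The third was ESCs with a TET1/2/3 triple knockout (TET TKO), which lack the enzymes that oxidise methylated cytosine, of the strain C57BL/6 X 129/sv. ESCs were the reference in both comparisons, so the comparisons share their controls, and knockout, strain and origin of the line cannot be told apart.

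PU.1 is an ETS-family factor that opens closed chromatin and directs the formation of macrophages, neutrophils and B cells. RUNX proteins bind DNA as heterodimers with CBFB, which does not touch DNA itself but strengthens binding. RUNX1 is required for blood stem cells, RUNX2 for bone, and RUNX3 for subsets of sensory neurons and T cells. NF-kB dimers of RELA, c-REL and p50 (the product of Nfkb1) are held in the cytoplasm by IkB proteins and enter the nucleus upon immune signals. The activity of NF-kB is therefore set largely after transcription, and RNA levels report only the supply of subunits.

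Runx1 and Runx3 each have a distal (P1) and a proximal (P2) promoter, and a count per gene adds transcripts from both. RefSeq promoter windows of 300 bases, which span 250 bases before the start and 50 after it, were given for 6 of the 8 genes (GRCm38.p6), with Spi1 and Nfkb1 missing from the table. The 250 bases before the start of the P1 and P2 promoters are shown because the P1 and P2 windows differ in their number of CpGs, the sites at which most DNA methylation lies in mammals, and CpGs are in capitals. Methylation of these promoters was not measured.
Runx1 distal (P1), chr16:92826075-92826324, minus strand: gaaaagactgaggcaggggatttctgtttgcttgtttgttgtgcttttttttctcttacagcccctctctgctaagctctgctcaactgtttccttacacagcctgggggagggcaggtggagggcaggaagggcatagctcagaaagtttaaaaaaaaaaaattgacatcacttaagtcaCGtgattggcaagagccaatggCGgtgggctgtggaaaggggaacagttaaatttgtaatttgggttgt
Runx1 proximal (P2), chr16:92697330-92697579, minus strand: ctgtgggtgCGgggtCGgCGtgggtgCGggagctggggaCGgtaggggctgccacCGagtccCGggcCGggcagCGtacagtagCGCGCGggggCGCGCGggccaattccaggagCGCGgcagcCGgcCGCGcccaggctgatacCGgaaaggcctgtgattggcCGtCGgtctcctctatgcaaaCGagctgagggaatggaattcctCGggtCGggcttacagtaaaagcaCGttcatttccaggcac
Runx3 distal (P1), chr4:135120395-135120644, plus strand: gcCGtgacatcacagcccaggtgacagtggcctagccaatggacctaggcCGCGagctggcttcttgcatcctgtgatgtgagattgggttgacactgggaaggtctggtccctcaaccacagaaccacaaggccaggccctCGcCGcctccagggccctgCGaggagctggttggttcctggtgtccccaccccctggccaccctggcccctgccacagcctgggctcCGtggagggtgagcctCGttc
Runx3 proximal (P2), chr4:135152295-135152544, plus strand: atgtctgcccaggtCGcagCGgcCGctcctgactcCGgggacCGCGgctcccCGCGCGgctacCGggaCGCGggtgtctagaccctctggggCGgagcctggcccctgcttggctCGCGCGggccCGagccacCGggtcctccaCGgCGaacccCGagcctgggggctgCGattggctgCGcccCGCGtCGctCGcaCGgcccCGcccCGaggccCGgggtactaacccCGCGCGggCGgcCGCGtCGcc

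The 300-base window of Runx1 held 2 CpGs at P1 and 35 at P2, and that of Runx3 held 8 at P1 and 45 at P2, against a median of 7 over 32851 promoter windows. The P2 promoters were thus richer in CpGs than 93.1% (Runx1) and 98.1% (Runx3) of all windows. The only Runx2 window given, at the upstream end of the gene, was as poor as the Runx1 P1 window, with 2 CpGs. Any further promoter of Runx2 was not given and not examined. The windows of Cbfb, Rel and Rela held 30, 42 and 31 CpGs. The RUNX core TGTGGT, searched on both strands, occurred in 16.8% of all windows. It had 2 matches in the P1 window of Runx1, 2 in that of Runx3, 3 in that of Runx2 and 1 in that of Rel, and none in the other windows of the 8 genes. The PU.1 core GAGGAAGT, present in 3.20% of all windows, had 1 match each in the windows of Cbfb and Rel.

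**Figure D1:**
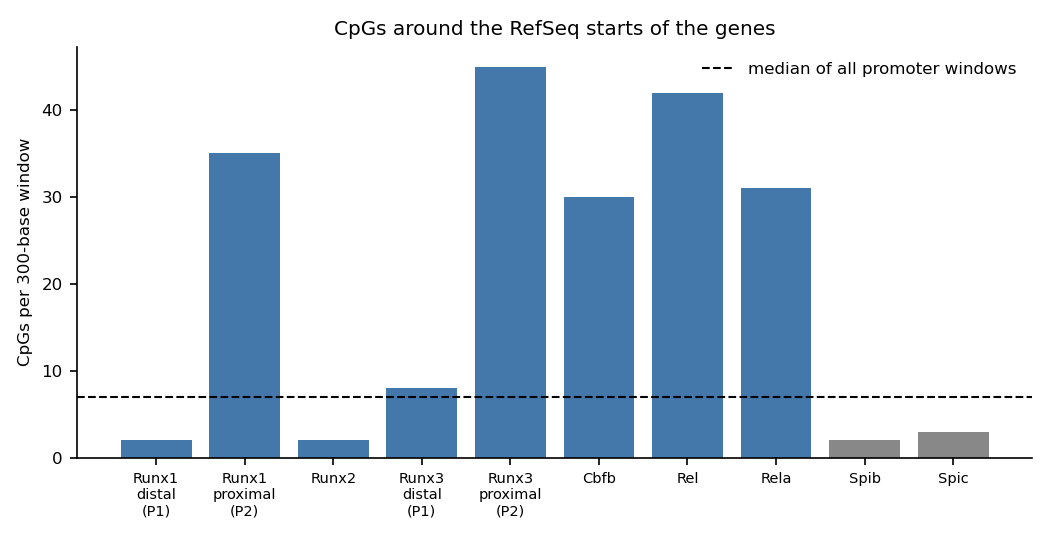
Number of CpGs in the 300-base RefSeq window around each start (bars), for the genes in the promoter table (blue) and for the PU.1 relatives Spib and Spic (grey); the dashed line is the median of all windows, 7 CpGs. The P2 windows of Runx1 and Runx3 stood at 35 and 45, whereas the P1 windows, Runx2, Spib and Spic held 2 to 8.

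Libraries held 20519702 to 23976914 counts in ESCs and NPs and 80704741 to 93210102 in TET TKO ESCs. Expression is given as RPKM, the reads of a gene scaled to its exon length in kilobases and to the library size after correction by trimmed mean of M values (TMM), and "log2 fold change" is the difference to ESCs fitted by edgeR. A gene is said to have risen or fallen when the Benjamini-Hochberg adjusted p of edgeR's quasi-likelihood F-test was below 0.05. The stricter limits, those of the study, asked for an adjusted p below 0.001 together with a change of 3-fold or more. The targeted genes were still counted in TET TKO ESCs, with Tet1 at 13.5 ± 2.38 RPKM against 65.1 ± 3.92 in ESCs, Tet2 at 2.48 ± 0.197 against 19.0 ± 2.47 and Tet3 at 0.551 ± 0.0724 against 0.715 ± 0.0744 (SD, n = 3), and counts over whole genes do not show whether these transcripts are intact. Of the NP libraries, replicate 2 carried the most RNA of the ESC marker Pou5f1, at 1.85 RPKM against 0.940 and 0.480. All 8 ESC markers fell in NPs and 7 of 8 neural progenitor markers rose; in TET TKO ESCs 1 of the 8 ESC markers was higher and 3 lower, and of 4 tested neural progenitor markers 2 were higher and 1 lower. The labels do not state whether replicates were separate cultures, whereas the methods call them biological replicates; if they were not, p-values measure technical spread only.

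In ESCs the 8 genes spanned more than 3 orders of magnitude, and the order was Cbfb, Rela, Nfkb1, Rel, Runx3, Spi1, Runx1 and Runx2, with no overlap between neighbours in the 3 libraries. Cbfb averaged 16.1 RPKM, above 87.2% of the 28896 genes with counts in ESCs, and Rela averaged 9.50. The genes of the named motif factors themselves lay lower, at 1.14 RPKM for Rel, 0.380 for Spi1 and 0.104 for Runx1. In ESCs, 4 of the 8 genes reached a mean of 1 RPKM, namely Cbfb, Rela, Nfkb1 and Rel. The same genes reached it in TET TKO ESCs, where Spi1 and Runx1 overlapped in the order. In NPs, Runx3 reached it while Rel averaged 0.997 RPKM, and the ranges of Runx3 and Rel and of Runx1 and Runx2 overlapped.

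**Figure D2:**
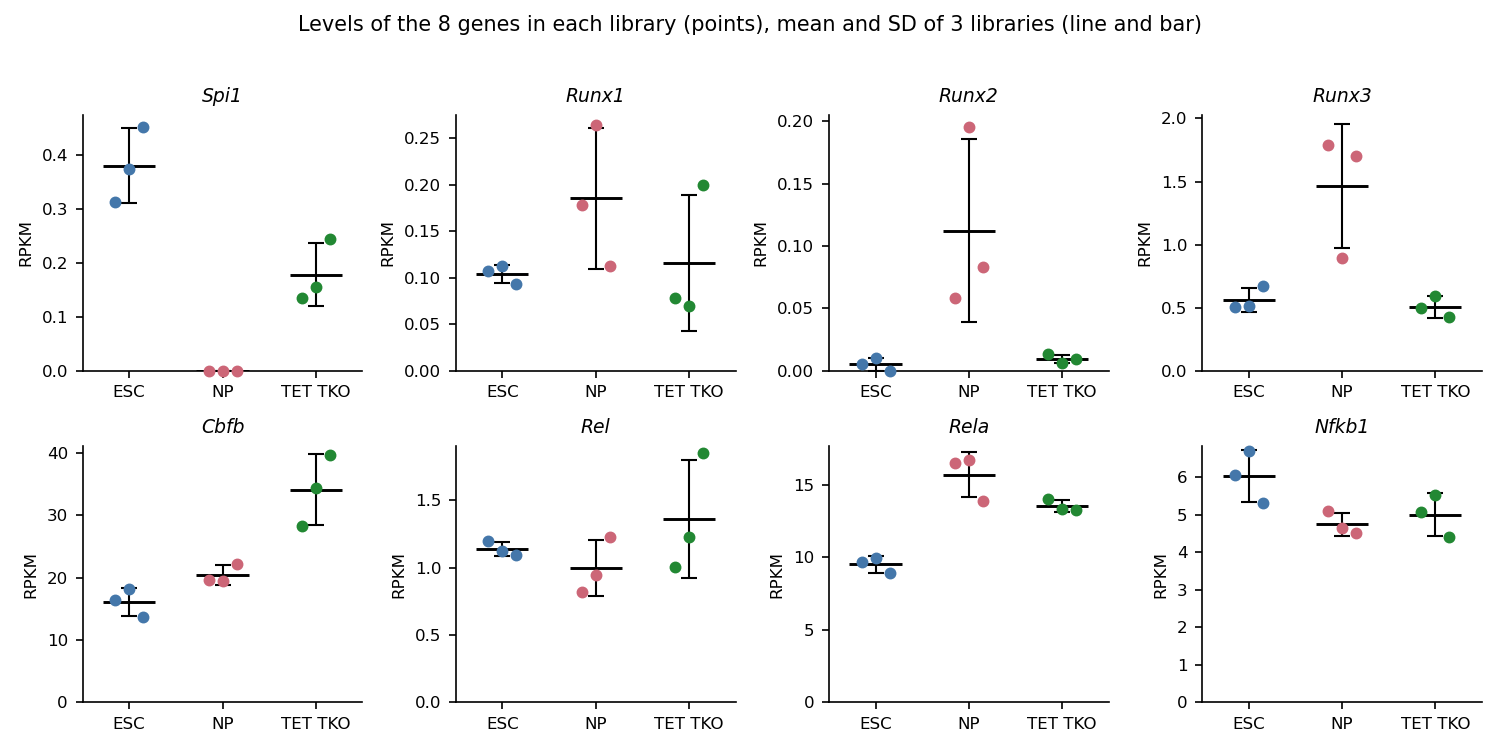
RPKM of the 8 genes in every library (points, replicates 1 to 3 from left to right in each group), with the mean and SD of 3 libraries (line and bar); each panel has its own axis from 0. Spi1 lay at 0 in the 3 NP libraries, Runx3 was highest in NPs, and Cbfb was highest in TET TKO ESCs.

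NPs were compared with ESCs to see which of the 8 genes change when pluripotent cells take a neural fate. Spi1 RNA was lost, Runx2 and Runx3 RNA rose, Rela rose by 1.65-fold, and Nfkb1 fell slightly, whereas Runx1, Cbfb and Rel did not pass the test. Of 15197 genes that reached 1 RPKM in at least 1 library of the comparison, 64.1% passed the test, 32.9% higher and 31.2% lower. Of the 8 genes, 5 reached that level and 3 of them passed, Runx3 and Rela higher and Nfkb1 lower, a share no larger than that of all genes. None passed the stricter limits, which 22.4% of genes did in edgeR; 4 of the 5 had an unadjusted p below 0.05, and DESeq2 gave 3 past the adjusted threshold and 0 past the stricter limits. Spi1, Runx1 and Runx2 stayed below 1 RPKM in all 6 libraries, so they are described by their counts and by a fit without this limit, in which 39.7% of 31654 genes passed, and 16.7% passed the stricter limits.

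Spi1 had 18, 22 and 30 counts in the ESC libraries, or 0.314, 0.374 and 0.453 RPKM. In the 3 NP libraries it had 0 counts. The groups did not overlap. Set against 3 counts in the NP libraries together, or 0.0162 RPKM, the level in NPs was 23.5-fold lower than the ESC mean. This fold is not a lower limit, because it leaves out the counting error in ESCs. The Poisson interval of the counts reached up to 0.0199 RPKM in NPs and began at 0.299 RPKM in ESCs. The adjusted p of the edgeR fit without the limit on low values was 3.76e-07, where 20.3% of genes passed in the lower direction. In bulk RNA, fewer cells that express a gene and less RNA per cell cannot be told apart.

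The relatives of PU.1 within the ETS family are SPIB, a factor of B cells, and SPIC, a factor of red-pulp macrophages. Spic was the most abundant of the 3 in ESCs, at 2.08, 2.26 and 2.23 RPKM, and had 0.0122, 0.0964 and 0.0112 RPKM in NPs. It fell 51.7-fold (log2 fold change −5.69 ± 0.57 SE, edgeR adjusted p = 4.996e-05), and 167-fold without NP replicate 2. Spic reached 1 RPKM only in ESC libraries, so its entry into this test required a high ESC level, and without the limit the adjusted p was 7.522e-11. Spib had 16, 39 and 37 counts in ESCs and 3, 13 and 1 in NPs, and fell by 2.45 on the log2 scale in the fit without the limit (SE 0.57, edgeR adjusted p = 0.000795). RNA of all 3 genes was thus lower in NPs in every library.

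Runx1, the RUNX gene named by the construct, had 27, 29 and 27 counts in ESCs (0.107, 0.112 and 0.0929 RPKM). It had 45, 76 and 31 counts in NPs (0.179, 0.264 and 0.113 RPKM). The lowest NP library stood only just above the highest ESC library. The fit without the limit gave a log2 fold change of 0.82 ± 0.39 (SE, edgeR adjusted p = 0.0986). Without NP replicate 3 the adjusted p was 0.0235.

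Runx2, which drives bone formation, had 1, 2 and 0 counts in ESCs. It had 11, 42 and 17 counts in NPs, where the highest library was replicate 2. The groups did not overlap. The ratio of the summed counts per scaled library was 23.0 (exact 95% counting interval 7.55 to 114), and the adjusted p of the edgeR fit without the limit was 2.118e-05, where 19.4% of genes passed in the higher direction. The highest NP level of Runx2, 0.196 RPKM, was nevertheless far below 1 RPKM. The antisense gene that shares part of its exons, Runx2os1, had 0 or 1 counts in each library of both groups.

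Runx3 had 0.507, 0.512 and 0.675 RPKM in ESCs. It had 1.79, 0.896 and 1.70 RPKM in NPs, where replicate 2 was lowest but still above every ESC library. Runx3 rose 2.59-fold (log2 fold change 1.37 ± 0.33 SE, edgeR adjusted p = 0.00618) and reached 1 RPKM only in NP libraries, so its entry into the test already required a high NP level. Without the limit the adjusted p was 0.00103. The RUNX genes did not share an order over the NP libraries: replicate 2 held the least Runx3 and the most Runx1 and Runx2. The same replicate held the most RNA of the mesenchyme genes Col1a2 (8.93 RPKM against 2.41 and 0.531) and Msx1 (35.5 against 25.2 and 27.7), and the least of the neural gene Hes5 (20.05 against 49.4 and 34.2). Summed over the 12 mesenchyme and bone markers, the NP libraries gave 44.9 to 81.8 RPKM, against 63.2 to 67.3 in ESCs. Most of this sum in ESCs was Alpl, at 54.6, 57.7 and 58.7 RPKM, which averaged 5.93 RPKM in NPs. Of the 7 tested genes of this list, 5 rose in NPs, while Alpl and Acan fell. The 10 sensory neuron markers summed to 59.8 to 116 RPKM in NPs, against 16.2 to 19.3 in ESCs. The part of these markers in the RUNX levels was not tested.

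Cbfb had 16.5, 18.2 and 13.8 RPKM in ESCs and 19.5, 19.4 and 22.2 in NPs. Every NP library lay above every ESC library, but the log2 fold change of 0.34 ± 0.14 (SE) had an edgeR adjusted p of 0.0615; without NP replicate 1 it was 0.0488, and with library sizes alone it was 0.0278. The ratio of Cbfb to the summed RUNX genes, in RPKM, was 24.4 ± 5.66 in ESCs and 11.9 ± 2.35 in NPs (SD, n = 3). Cbfb RNA thus exceeded that of the DNA-binding subunits in both, though by less in NPs, and the 2 ranges did not overlap.

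Rela, the main activating subunit of NF-kB, had 9.67, 9.96 and 8.88 RPKM in ESCs and 16.5, 16.7 and 13.9 in NPs. The groups were clearly apart, and Rela rose 1.65-fold (log2 fold change 0.72 ± 0.13 SE, edgeR adjusted p = 0.00151). It passed in 13 of 13 alternatives. Nfkb1 had 6.05, 6.69 and 5.31 RPKM in ESCs and 5.09, 4.65 and 4.50 in NPs. The groups were narrowly apart, and the fall of Nfkb1 by 0.34 on the log2 scale (SE 0.13, edgeR adjusted p = 0.0394) held in 6 of 13 alternatives. It was lost when ESC replicate 1 (edgeR adjusted p = 0.130), ESC replicate 2 (0.180), NP replicate 2 (0.0843) or NP replicate 3 (0.0921) was left out. The call was also lost without the limit of 1 RPKM (0.0758), with library sizes alone (0.0760) and with the replicate block (0.0838). The ratio of Nfkb1 to Rela in RPKM was 0.632 ± 0.0374 in ESCs and 0.304 ± 0.0230 in NPs (SD, n = 3).

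Rel, which encodes the c-REL of lymphocytes, had 1.20, 1.12 and 1.10 RPKM in ESCs and 0.817, 0.948 and 1.23 in NPs. The groups overlapped, and the log2 fold change was −0.19 ± 0.23 (SE, edgeR adjusted p = 0.491). None of 13 alternatives brought Rel past the threshold.

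TET TKO ESCs were compared with wild-type ESCs to see whether the factor genes differ in cells without TET enzymes. Cbfb rose 2.10-fold, Rela rose 1.42-fold, and Spic fell, whereas Rel and Nfkb1 did not pass the test. Spi1 and the RUNX genes stayed below 1 RPKM in all libraries compared, and did not pass in the fit without this limit. Of 13939 genes at or above 1 RPKM in at least 1 library, 35.5% passed, 22.8% higher and 12.7% lower. Of the 8 genes, 4 were tested and 2 passed, both higher. None passed the stricter limits, which 2.31% of genes did; 2 of the 4 had an unadjusted p below 0.05, and DESeq2 gave 3 past the adjusted threshold, adding Nfkb1, and 0 past the stricter limits. The median log2 fold change of all tested genes was 0.12 with TMM and −0.05 with library sizes alone, so small changes depend on the scaling.

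Cbfb had 28.2, 34.4 and 39.6 RPKM in TET TKO ESCs against 13.8 to 18.2 in ESCs. The lowest TET TKO library lay well above the highest ESC library. Cbfb rose 2.10-fold (log2 fold change 1.07 ± 0.15 SE, edgeR adjusted p = 0.00211) and passed in 14 of 14 alternatives. The ratio of Cbfb to the summed RUNX genes, in RPKM, was 53.8 ± 7.74 (SD, n = 3), above every ESC library.

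Rela had 14.0, 13.4 and 13.2 RPKM in TET TKO ESCs, all above the ESC range of 8.88 to 9.96. It rose 1.42-fold (log2 fold change 0.50 ± 0.11 SE, edgeR adjusted p = 0.0119). The call was lost when ESC replicate 1 (adjusted p = 0.0597), 2 (0.0527) or 3 (0.0542) was left out and with library sizes alone (0.0529). Nfkb1 had 5.06, 5.53 and 4.39 RPKM, overlapping with ESCs, and a log2 fold change of −0.28 ± 0.13 (SE, edgeR adjusted p = 0.127). Rel had 1.004, 1.23 and 1.85 RPKM in TET TKO ESCs, with replicate 3 apart from the rest, and a log2 fold change of 0.25 ± 0.25 (SE, edgeR adjusted p = 0.464). Without that library the log2 fold change of Rel turned to −0.04. TET TKO replicate 3 also held the most RNA of Col1a2 (2.25 RPKM against 0.221 and 0.265). The sum of the mesenchyme and bone markers was highest there too (89.4 against 54.9 and 47.8). Most of that sum was Alpl (78.9 RPKM against 46.1 and 39.7), which was abundant in ESCs as well. This library also held the highest sum of the ESC markers (3227.5 against 2641.9 and 2429), although Pou5f1 itself was lowest there (209 against 335 and 343). The part of these differences in the levels of Rel and of Runx1 was not tested.

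Spi1 had 28, 30 and 57 counts in the deeper TET TKO libraries, or 0.135, 0.156 and 0.245 RPKM, all below the ESC libraries. The log2 fold change without the limit was −1.09 ± 0.43 (SE, edgeR adjusted p = 0.0787, where 19.3% of 33796 genes passed), and without TET TKO replicate 3 the adjusted p was 0.0138. The signal of Spi1 was thus read from few counts, yet unlike in NPs every TET TKO library held some. Spic had 0.365, 0.696 and 1.18 RPKM and fell 2.95-fold (log2 fold change −1.56 ± 0.40 SE, edgeR adjusted p = 0.0196). This call was lost without ESC replicate 1 or 2, with an adjusted p of up to 0.0606. Spib, with 68, 45 and 83 counts, had a log2 fold change of −0.71 ± 0.41 (SE) without the limit (edgeR adjusted p = 0.267).

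Runx1 had 71, 59 and 204 counts in TET TKO ESCs, or 0.0778, 0.0699 and 0.20 RPKM, with replicate 3 above and the others below every ESC library. Its log2 fold change without the limit was 0.15 ± 0.42 (SE, edgeR adjusted p = 0.831), and −0.50 without replicate 3. Runx3 had 0.500, 0.596 and 0.424 RPKM, within or below the ESC range, with a log2 fold change without the limit of −0.17 ± 0.32 (SE, edgeR adjusted p = 0.737). Runx2 had 9, 4 and 7 counts, and the ratio of its summed counts to ESCs was 1.92 (exact 95% counting interval 0.570 to 10.1).

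**Figure D3:**
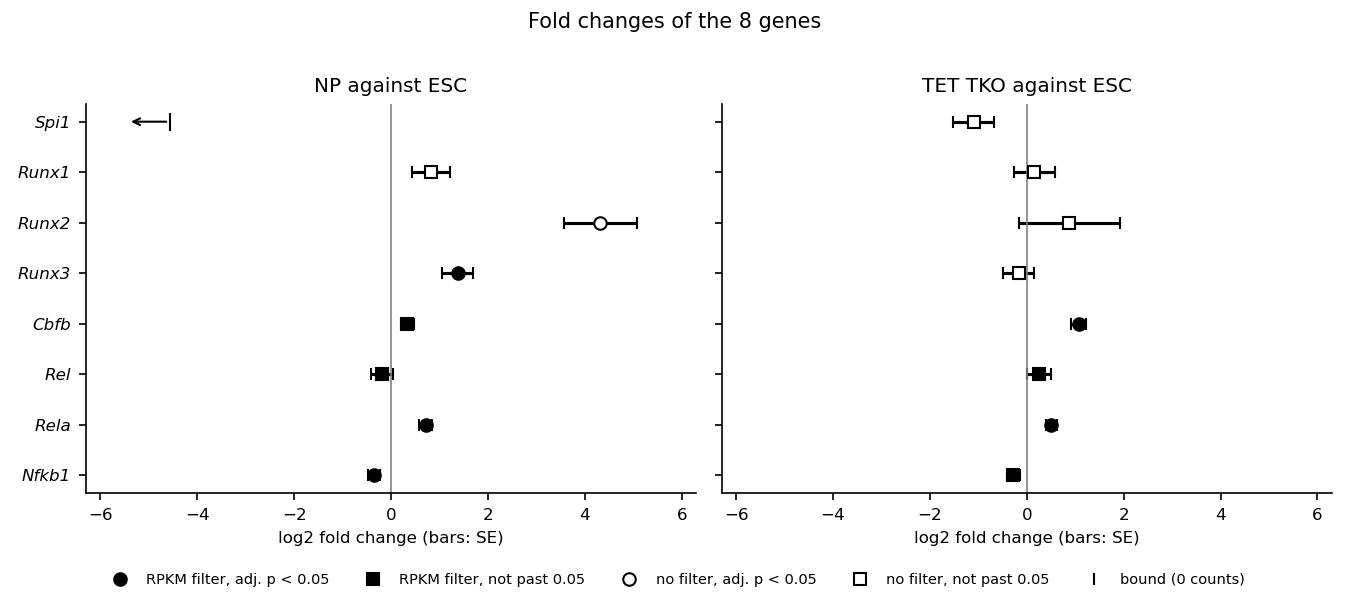
Log2 fold change against ESCs with SE for the 8 genes in NPs (left) and TET TKO ESCs (right), from edgeR. Filled symbols mark genes at or above 1 RPKM in a library, open symbols the fit without that limit, and circles an adjusted p below 0.05. The bar with an arrow, labelled as a bound in the figure, marks the fold of Spi1 in NPs, set against 3 counts in place of 0. This fold is not a lower limit, because it leaves out the counting error in ESCs. Among genes with an adjusted p below 0.05, Runx2, Runx3 and Rela lay to the right and Spi1 and Nfkb1 to the left in NPs. In TET TKO ESCs these were Cbfb and Rela, both to the right.

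Genes that act with PU.1 or under it were next examined. The list counts below are to be read beside the shares of all tested genes that passed, 64.1% in NPs and 35.5% in TET TKO ESCs. Without the limit of 1 RPKM these shares were 39.7% and 19.3%. No list was tested as a set. Of the 14 partners and lineage regulators of the PU.1 list, 8 were tested in NPs, of which 3 were higher and 2 lower; 8 passed without the limit of 1 RPKM. A gene that reached 1 RPKM only in the group where it was high had to differ in order to be tested, and such genes included Gata1, Gata2, Irf8, Nfkbiz, Cxcl10, Tnfaip3, Cd34 and Itga2b in NPs and, in TET TKO ESCs, Gata2, Myb, Cebpb, Nfkbiz and Runx1t1. Gata1, the erythroid factor that binds and opposes PU.1, had 1.503, 1.61 and 2.09 RPKM in ESCs and fell to 0, 0.0844 and 0.0177 in NPs (46.2-fold, edgeR adjusted p = 0.000104; 151-fold without NP replicate 2). Gata2, a regulator of blood and neural progenitors, rose 14.1-fold in NPs (edgeR adjusted p = 0.00192), and 8.69-fold without NP replicate 2. The AP-1 subunit Jun rose 9.86-fold (edgeR adjusted p = 8.618e-07) and Irf8, a partner of PU.1 on composite sites, rose 6.77-fold (edgeR adjusted p = 0.000149). In TET TKO ESCs, 4 of 7 tested genes of this list were higher and 0 lower, namely Gata2 (10.1-fold, edgeR adjusted p = 0.00206), Myb (4.31-fold, 0.00153), Jun (2.59-fold, 0.0132) and Cebpb (2.15-fold, 0.0135). The call for Cebpb was lost without ESC replicate 1 or 2, and with all groups in 1 fit (edgeR adjusted p = 0.0816).

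The PU.1 targets of myeloid and B cells were 15 genes, of which 5 were tested in NPs and 3 fell, with 0 higher. Of all genes tested in NPs, 64.1% passed. Without the limit of 1 RPKM, 9 passed, 8 lower and 1 higher. The higher gene was Csf1r, the receptor for macrophage colony-stimulating factor, with 0, 4 and 2 counts in ESCs and 17, 33 and 27 in NPs (log2 fold change 3.57, edgeR adjusted p = 3.197e-05 without the limit). Laptm5, a lysosomal protein of blood cells, had 25.7, 27.3 and 20.4 RPKM in ESCs, where Spi1 was below 1 RPKM, and 0.273, 0.326 and 0.114 in NPs. It fell 103-fold (edgeR adjusted p = 1.069e-06). Cd68, a lysosomal protein abundant in macrophages, fell 6.27-fold from 26.5 RPKM (edgeR adjusted p = 0.000568; 9.83-fold without NP replicate 2), and Cd79a, a subunit of the B-cell receptor, fell 11.5-fold from 0.726 RPKM (0.000733). Cd79a entered the test only through ESC replicate 3, at 1.005 RPKM, and had an adjusted p of 2.012e-05 without the limit. In TET TKO ESCs, 6 were tested, with 2 higher and 1 lower, and 7 passed without the limit. Laptm5 fell there as well, by 2.20-fold (edgeR adjusted p = 0.00127), to 12.1, 11.8 and 9.66 RPKM. Csf2ra rose 1.63-fold (edgeR adjusted p = 0.0142), a call lost without ESC replicate 1 or 2, and with all groups in 1 fit (0.0661). Csf1r had 75, 49 and 447 counts in TET TKO ESCs. Its rise (log2 fold change 4.65 ± 1.14 SE, edgeR adjusted p = 0.0170) entered the test only through replicate 3, at 1.06 RPKM, and the call was lost without ESC replicate 1 (adjusted p = 0.0579), when 1 gene of the list passed in place of 3.

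Of 18 blood cell markers, 4 were tested in NPs, where 2 fell (Cd34 by 3.21-fold, edgeR adjusted p = 0.00524, and Itga2b by 2.22-fold, 0.0160, the latter not without ESC replicate 3), and 3 in TET TKO ESCs, where none passed in edgeR. Without the limit of 1 RPKM, 6 passed in NPs, all lower, and 4 in TET TKO ESCs, 1 higher and 3 lower; with at least 10 counts in every library 2 passed in TET TKO ESCs, and 1 passed there with DESeq2, the replicate block, thinning, or TET TKO replicate 2 or 3 left out. The most abundant in TET TKO ESCs was Epor, the erythropoietin receptor, at 2.82 RPKM with a log2 fold change of 0.42 (edgeR adjusted p = 0.486). The summed level was 7.08 to 8.50 RPKM in ESCs, 3.85 to 6.04 in NPs and 6.49 to 8.97 in TET TKO ESCs. Of the markers that define mature blood cells, the T-cell gene Cd3e had 45 to 76 counts in ESCs and 0 in NPs. The leukocyte gene Ptprc and the macrophage gene Adgre1 were at 0 in NPs but had at most 2 and 1 counts in an ESC library, and the microglia gene Cx3cr1 was at 0 in both. Of the embryonic globins, Hbb-bh1 had 2 to 8 counts in ESCs and 0 in NPs, whereas Hbb-y had 0 in ESCs and 1 to 3 in NPs. Aif1, a gene of macrophages and microglia, had 0 to 1 counts in ESCs and 2 to 6 in NPs. Of 8 endothelial markers, 4 were tested in NPs, of which 2 rose (Sox17 and Flt1) and 2 fell (Pecam1 and Tek), and 3 in TET TKO ESCs, of which only Flt1 rose (none without TET TKO replicate 3). In NPs against ESCs, each of the 4 reached 1 RPKM only where it was high. Flt1 did so only in NP replicate 3 (1.15) and TET TKO replicate 3 (1.26). Without the limit and from few counts, Emcn (log2 fold change 5.36, edgeR adjusted p = 5.751e-06) and Cdh5 (1.34, 0.0377) also rose in NPs. Without it Kdr fell in TET TKO ESCs (−2.105, 0.00320). Sensory neuron markers gave 3 higher and 2 lower of 7 tested in NPs and 1 each of 4 in TET TKO ESCs (0 without ESC replicate 1 or 2), and mesenchyme and bone markers gave 5 higher and 2 lower of 7 tested in NPs and 1 each of 6 in TET TKO ESCs (0 without any 1 of the ESC libraries).

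**Figure D4:**
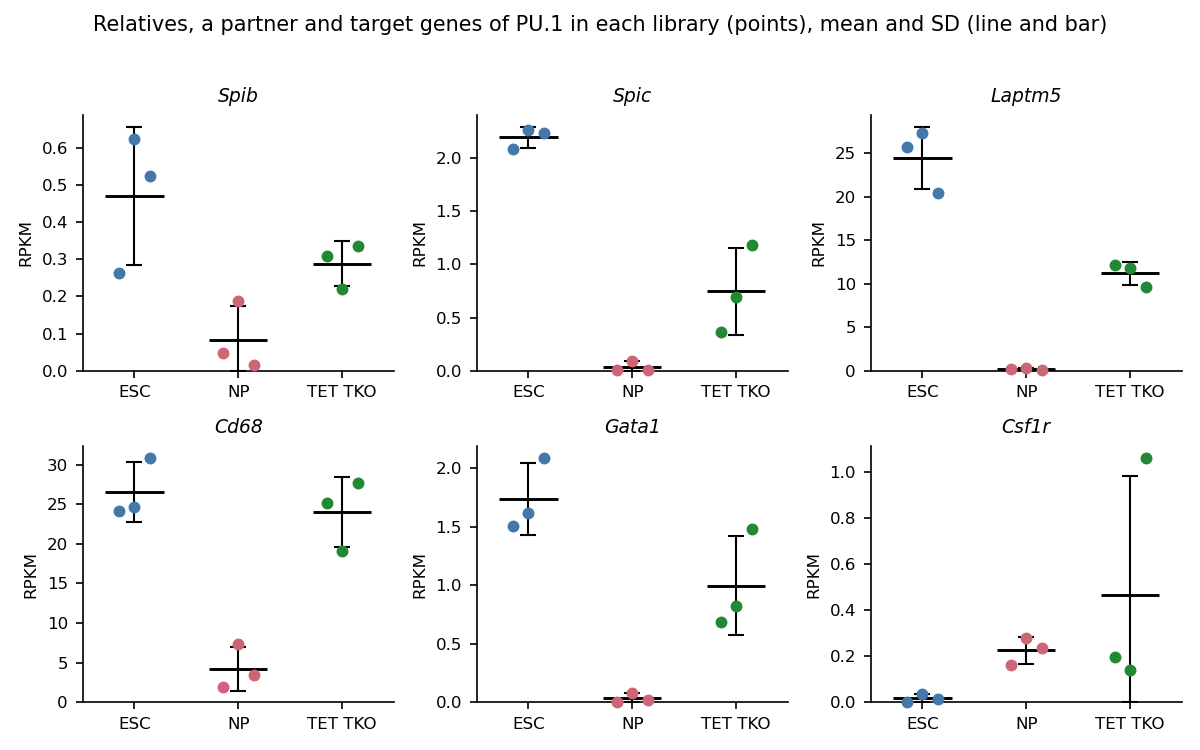
RPKM in every library (points, replicates 1 to 3 from left to right), with mean and SD (line and bar, lower bars stop at 0), of the PU.1 relatives Spib and Spic, the partner Gata1 and the PU.1 targets Laptm5, Cd68 and Csf1r. All but Csf1r were highest on average in ESCs and near 0 or lowest in NPs, and Csf1r reached 1.06 RPKM in a single TET TKO library.

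RNA of the corepressors and coactivators that RUNX factors recruit reached 1 RPKM in a library for 18 of 20 genes in ESCs, while 19 did so in NPs and 17 in the TET TKO line. Of the 20, 19 were tested in NPs, with 8 higher and 7 lower and a median log2 fold change of 0.14 against 0.04 over all genes. Of all genes tested there, 64.1% passed. The histone acetyltransferase Kat6b fell 5.84-fold (edgeR adjusted p = 2.547e-06) and the Groucho-type corepressor Tle4 fell 5.36-fold (1.219e-05). The histone methyltransferase Suv39h1 rose 5.004-fold (4.012e-06) and Cbfa2t3 (ETO2), a corepressor of blood progenitors, rose 4.64-fold (0.00131), having entered the test only through NP replicate 1, at 1.17 RPKM. In TET TKO ESCs, 18 were tested, with 3 higher and 4 lower and a median log2 fold change of 0.00, against 0.12 over all genes, of which 35.5% passed. Kat6b fell there too, by 1.98-fold (edgeR adjusted p = 0.000599), and Runx1t1 (ETO), the partner of RUNX1 in a leukemic fusion, fell 2.85-fold (0.0140). Hdac1 rose 1.75-fold (edgeR adjusted p = 0.00179) and Suv39h1 1.62-fold (0.00971). Without ESC replicate 1, 3 genes of the list passed in place of 7.

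Other NF-kB subunits and inhibitors gave 2 higher and 6 lower of 10 tested in NPs, with a median log2 fold change of −1.05, and 3 higher and 1 lower of 10 in TET TKO ESCs, with a median of −0.29. Over all genes tested, 64.1% passed in NPs and 35.5% in TET TKO ESCs. The 10 genes summed to 107 to 124 RPKM in ESCs, 51.2 to 67.6 in NPs and 89.9 to 107 in TET TKO ESCs. In NPs the largest falls were those of the nuclear IkB-type regulators Nfkbid (6.03-fold, edgeR adjusted p = 4.059e-05) and Bcl3 (4.03-fold, 0.00127) and of the subunit Relb (3.53-fold, 0.000380). Nfkbiz, another nuclear member of the IkB family, rose 2.58-fold in NPs (edgeR adjusted p = 0.00170) and 4.45-fold in TET TKO ESCs (0.00214). Nfkbia, the classical inhibitor IkB-alpha and the most abundant gene of the list in each group, had 24.2, 14.9 and 22.5 RPKM in TET TKO ESCs against 31.2, 32.0 and 39.2 in ESCs. It fell 1.67-fold (edgeR adjusted p = 0.0241), a call lost without any 1 of the ESC libraries (adjusted p of up to 0.0741) and with all groups in 1 fit (0.0590). Commd1 rose 1.65-fold (edgeR adjusted p = 0.00429) and Nfkb2 1.55-fold (0.0212), the latter not without ESC replicate 1, ESC replicate 2 or TET TKO replicate 1, nor with library sizes alone. Without ESC replicate 1 or 2, 2 genes of the list passed in TET TKO ESCs in place of 4.

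Upstream signalling genes of NF-kB gave 8 higher and 8 lower of 27 tested in NPs and 6 higher and 2 lower of 25 in TET TKO ESCs, where 2 passed in all without ESC replicate 1 or 2, 4 without ESC replicate 3 and 4 without TET TKO replicate 1. The shares over all genes tested were 64.1% in NPs and 35.5% in TET TKO ESCs. Tradd, an adaptor of the TNF receptor, rose in both comparisons, 3.03-fold in NPs (edgeR adjusted p = 0.000559) and 2.03-fold in TET TKO ESCs (0.00524). The receptor Tnfrsf1b fell 5.03-fold in NPs (edgeR adjusted p = 0.000488), and the kinase Ripk1 fell 2.09-fold in TET TKO ESCs (0.0142), a call lost without ESC replicate 1 or 2. NF-kB target genes gave 4 higher and 4 lower of 10 tested in NPs and 3 higher and 1 lower of 8 in TET TKO ESCs. The adhesion molecule Icam1 fell 16.7-fold in NPs (edgeR adjusted p = 1.256e-05) and 3.44-fold in TET TKO ESCs (0.000267). Tnfaip3, a feedback inhibitor of NF-kB, rose 6.83-fold in NPs (edgeR adjusted p = 4.793e-05), and the chemokine Cxcl10 rose 8.25-fold (0.00194). In TET TKO ESCs, Ier3 rose 2.78-fold (edgeR adjusted p = 0.0111) and Gadd45b 2.68-fold (0.00729).

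**Figure D5:**
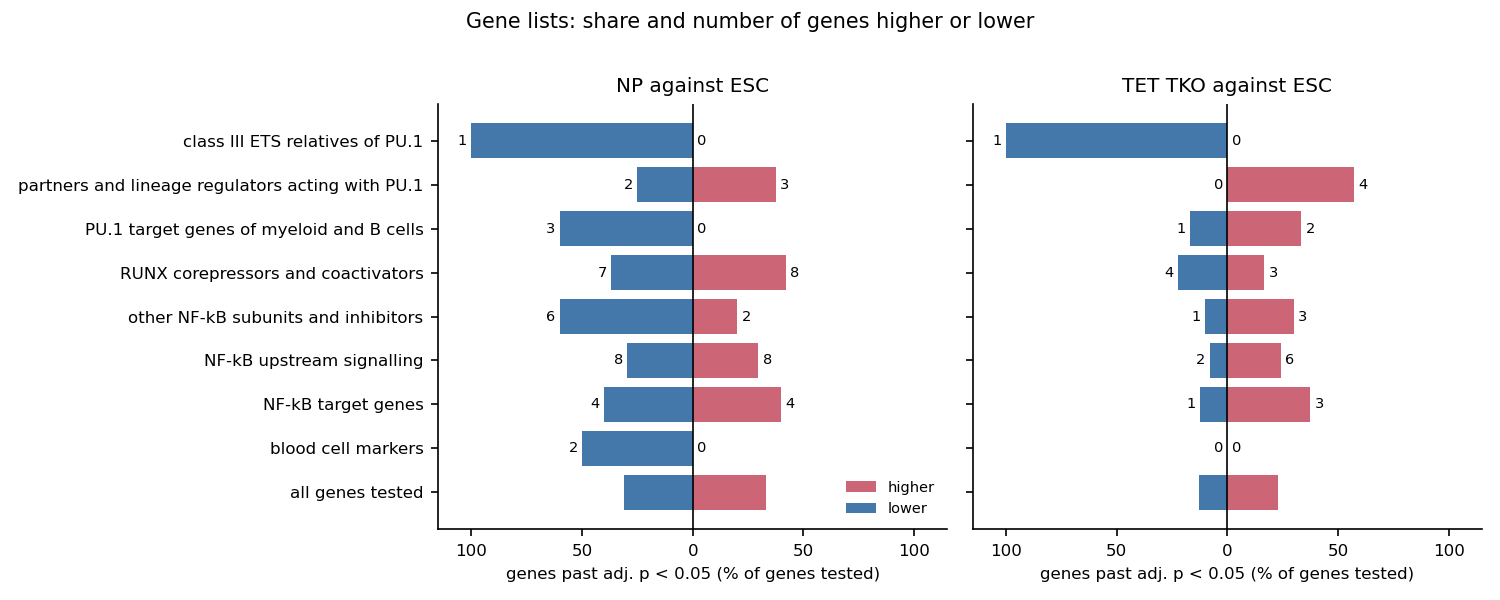
Share of the tested genes of each list that were higher (red) or lower (blue) with an edgeR adjusted p below 0.05, in percent, with the number of genes beside each list's bars, for NPs (left) and TET TKO ESCs (right); the bottom bar gives all genes tested. Lists with few tested genes, such as the relatives of PU.1 with 1, give wide bars from single genes.

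The genes whose profiles over the 9 libraries lay nearest to those of the tested factors, by the Euclidean distance of centred log2 CPM among 15505 genes, were Scamp1 (0.31) and Cnot7 (0.33) for Cbfb, Hmox2 (0.26) and Tmco3 (0.27) for Rela, Pik3c2a (0.27) and Srd5a3 (0.29) for Rel, and Ubxn1 and Apex1 (both 0.22) for Nfkb1. For Runx3 they were Rtn2 (0.59) and Dock3 (0.63). These libraries share their normalization and fall into 3 groups, so the distances are a description.

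In the constructs themselves, methylation of the fragment with the wild-type motif minus that with the scrambled motif, averaged over up to 23 CpGs outside the motif, was 10.6 ± 1.85 points for PU.1, 0.908 ± 1.964 for RUNX1 and −14.3 ± 5.78 for c-REL (5 CpGs; −6.57 with a minimum of 1 read per CpG in place of 10) in ESCs that received DNA methylated beforehand by the CpG methylase SssI, and −3.22 ± 1.20, 1.61 ± 1.21 and 1.18 ± 1.22 points in TET TKO ESCs given the same (± 95% counting interval, reads summed over the runs of 1 sample, no replicates). NPs were differentiated from ESCs that had received unmethylated DNA. In these NPs the differences were −7.31 ± 1.32 points for PU.1, −4.88 ± 0.780 for RUNX1 and 88.9 ± 2.10 for c-REL. The last was taken over 18 CpGs, where the scrambled fragment had a median of 18 reads per CpG and 3.70% methylation. All these intervals treat CpGs as independent although a read can cover several of them, so they are too narrow.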

How the data were processed

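RNA-seq data of 9 of the 24 samples were used, with 3 libraries per group. Per the labels and methods, the authors trimmed reads (the submitters' processing notes name Trimmomatic 0.38), aligned them to GRCm38 with STAR 2.6.1b and deposited raw counts per gene from featureCounts 1.6.2 (Ensembl 89, counted without strand), so that a gene and its antisense partner cannot be told apart. For the Hi-TransMet samples the deposited counts are reads and methylated reads per CpG, used at 10 or more reads for the 3 samples with tables of their own; 2 tables hold runs of 2 samples each, and their 51 columns could not be matched to a sample and were not used. Intervals and floors cover counting error only, and those of the methylation differences treat the CpGs of a fragment as independent.

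Libraries were scaled by TMM, and ESCs were compared with each other group in edgeR 4.0.16 (R 4.3.3) by the quasi-likelihood F-test on genes with at least 1 RPKM in 1 of the 6 libraries. The SE was derived from the log2 fold change and its F statistic. DESeq2 1.42.0 was an alternative, as were other size factors, other filters, all groups in 1 fit, a replicate block, thinned TET TKO counts and each library left out. The test was checked on simulated counts with a single dispersion. Changes were simulated only in genes more abundant in ESCs than Spi1, the RUNX genes and Rel, so changes at low counts were not checked. Poisson and binomial intervals (95%) came from Python 3.11.15 with scipy 1.17.1, and the fold of Spi1 in NPs is set against 3 counts. The edgeR and DESeq2 adjusted p-values are Benjamini-Hochberg values over all genes tested.

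The 8 genes and the 13 lists were chosen with earlier results of these data known. Named list genes were the up to 4 genes per list and comparison with the largest change among those past an adjusted p of 0.05 with at least 10 counts in each library of the higher group, or the most abundant gene of a list with none; not all are described. Spib, Spic and the Tet genes were always named, and further genes were chosen after their values were seen. The deposited percentages, the targeted cell lines and the siRNA samples were not used here. Promoter sequences came from RefSeq.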

Additional observations from a re-analysis of the deposited data

How the results depend on the processing

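For genes past the study's stricter limits, NPs against ESCs gave 5281 without the filter on low values against 3408 with it, and TET TKO against ESCs gave 910 with DESeq2, 1263 without the filter and 674 with the replicate block against 322; leaving out 1 library gave 2464 to 3413 and 50 to 329. At the adjusted threshold alone, leaving out 1 library gave 8120 to 9957 genes in NPs and 2609 to 5375 in TET TKO ESCs. Of the 8 genes, 2 (Spi1 and Runx2) passed the stricter limits in NPs without the filter, and 0 to 1 when 1 library was left out (Runx3, without NP replicate 2). At the adjusted threshold 2 to 4 passed in NPs and 1 to 2 in TET TKO ESCs when 1 library was left out; 1 passed without any 1 of the ESC libraries. Correlations of deviations at the same replicate number were −0.0555, 0.00879 and −0.123 for ESCs and NPs, against −0.0819 to 0.109 at different numbers, which shows no pairing. For ESCs and TET TKO ESCs they were −0.0801, 0.306 and 0.214, against −0.393 to 0.19, so whether numbers pair these samples is not settled. The replicate block lost Nfkb1 in NPs (edgeR adjusted p = 0.0838) and gained Spi1 in TET TKO ESCs (0.0321). In TET TKO ESCs, the log2 fold change of Runx1 reversed to −0.0033 with library sizes alone, −0.0075 with the block and −0.50 without replicate 3 (−0.50 to 0.41 with 1 library left out), and that of Rel to −0.035 without replicate 3 (−0.035 to 0.43). Library sizes alone brought Spi1 (0.0437) and Nfkb1 (0.0273) past the threshold there, and DESeq2 (0.0346 and 0.0340) did so too; for Spi1 so did 10 counts in every library (0.0372) and thinning (0.0373). Of the fold changes of the 8 genes under alternatives, 187 kept direction and side, 11 gained and 11 lost the call and 4 reversed. List counts moved by over 1.5 times in 43 of the alternatives and held in 308. Of 46 named list genes in NPs 44 kept their call in each alternative that tested them, and of 36 in TET TKO ESCs 19 did; calls for Spic, Acan, Col1a2, Cxcl10, Esrrb, Map3k14, Pou4f1, Prph, Sox1, Dppa5a and Tnfrsf1a were among those lost. For c-REL the methylation difference in ESCs with prior methylation was −6.57 points with a minimum of 1 read per CpG, against −14.3 with 10, where 5 CpGs remained, and a minimum of 20 gave no value for it in those ESCs or in NPs; the cause of the other changes was not tested. Spi1, Runx1 and Runx2 rest on few counts in ESCs and NPs, which limits what can be seen there.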
